A study of Mus musculus with 3 samples.

Results

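The genes of the matrix metalloproteinases (Mmp), of the ADAMTS proteinases (Adamts), and of the tissue inhibitors of metalloproteinases (Timp) were followed in skin-resident macrophages of the mouse through the second telogen, the resting phase of the hair cycle. Members were all genes whose symbol starts with Mmp, Adamts, or Timp and a digit, as named through the RefSeq transcript of each probe. These were 45 of the 19752 genes with a named probe, made up of 22 Mmp, 19 Adamts, and 4 Timp genes. Mmp27 also meets the rule but has no probe named in this way. The rule uses gene symbols and no measured value.

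CD11b+Gr1-F4/80+ macrophages were FACS-sorted from backskin of CD1 mice at postnatal days 42, 55, and 69 (P42, P55, and P69, from the sample labels). In the terms of the study these are early, mid, and late telogen, and its text gives a slightly later day for the first. Mice of all groups were untreated, the methods of the study used females, and the RNA of 3 littermates was pooled for each array. Each age was represented by 1 array measured in 1 color, so no test between ages was possible and every change below is a description of these arrays. The comparison addresses how the expression of macrophages differs as hair follicles progress through telogen toward new growth.

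Matrix metalloproteinases are zinc-dependent enzymes that are made as inactive proenzymes, secreted or held at the cell membrane, and that cleave collagens, elastin, and other proteins outside the cell. ADAMTS proteinases are secreted relatives that trim procollagens and cut proteoglycans, and TIMPs bind the active site of these enzymes and block it. Macrophages are a known source of several of them, most typically of the elastase Mmp12 and the gelatinase Mmp9, and the enzymes take part in remodelling the dermal matrix.

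All values are log2 of the background-corrected signal relative to the 75th percentile of the array, and are called levels here. A level compares arrays for the same probe and does not compare genes with each other. The members have 59 probes in all, and for the 14 genes with more than 1 the brightest probe on average stands for the gene. The scanner software marks spots that are well above background, and the dimmest probes so marked had levels of -4.44 at P42, -4.04 at P55, and -5.01 at P69. When only 1 of a pair of arrays passed this mark for a gene, the change was computed against that limit on the other array, or against the gene's own signal there if brighter. Such a change is a lower bound and is written as "at least". A change counted when it was at least 2-fold, a log2 change of 1.

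Of all probes, 71.4% were well above background on the P42 array, 59.6% on the P55 array, and 68.7% on the P69 array, and no spot was saturated. The median SD (log2) over repeated spots was 0.14, 0.12, and 0.12, which gives a change from P42 a technical SD of 0.19 at either later age. This error covers the spots of an array, and it leaves out mice, sorts, and amplification. The deposited table of processed values assigns the later arrays the other way round from the scanner files. Its P55 column matched the scanner file of P69 within 0.05 (log2) of a constant offset for 99.9% of probes, and its P69 column matched the scanner file of P55 for 99.8%. Ages below are those of the scanner files. Under the assignment of the table, each value given for P55 would belong to P69 and the reverse, so changes that both later arrays share do not depend on it.

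Macrophage markers were well above background on all arrays for 15 of 15 measured genes, and their summed level, in multiples of the 75th percentile, was 1105 at P42, 1064 at P55, and 678 at P69. Itgam was the brightest of them on each array, with levels of 8.95, 8.73, and 7.85. Markers of other skin cells were also measured, although the gate selects CD11b+Gr1-F4/80+ cells. The 15 keratinocyte markers summed to 273, 395, and 264, and without Trp63, whose probe made up most of the sum and which was set aside after its values were seen, to 11.2, 132, and 101. Langerhans and dendritic cell markers summed to 47.7, 164, and 99.4 over 7 genes, and to 34.0, 55.9, and 39.6 without Cd207, the brightest of them at P55 and P69. Fibroblast markers summed to 95.4, 51.7, and 53.4 over 11 genes, and endothelial markers to 39.0, 27.8, and 35.8 over 9. Neutrophil markers summed to 84.2, 57.1, and 45.4 over 9 genes, most of it from Csf3r, and to 1.95, 5.33, and 3.14 without it, and Elane did not pass background on any of the arrays. Most of the neutrophil sum without Csf3r came from Cxcr2, with levels of 0.10, 2.25, and 1.44. Ltf was lower on both later arrays (log2 changes -2.52 and -2.34). Cd207 and Csf3r were likewise set aside after their values were seen. Smooth muscle and pericyte markers summed to 5.78, 9.49, and 17.3, T cell markers to 1.97, 6.43, and 3.74, mast cell markers to 3.54, 1.64, and 1.20, and melanocyte markers to 1.74, 5.64, and 5.59. Most of the mast cell sum came from Tpsb2, with levels of 1.67, 0.50, and -0.39. Of the 5 mast cell markers with a value at P69, 3 lay above and 2 below P42. In these pooled cells, fewer cells of a type and less RNA per cell cannot be told apart.

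**Figure D1:**
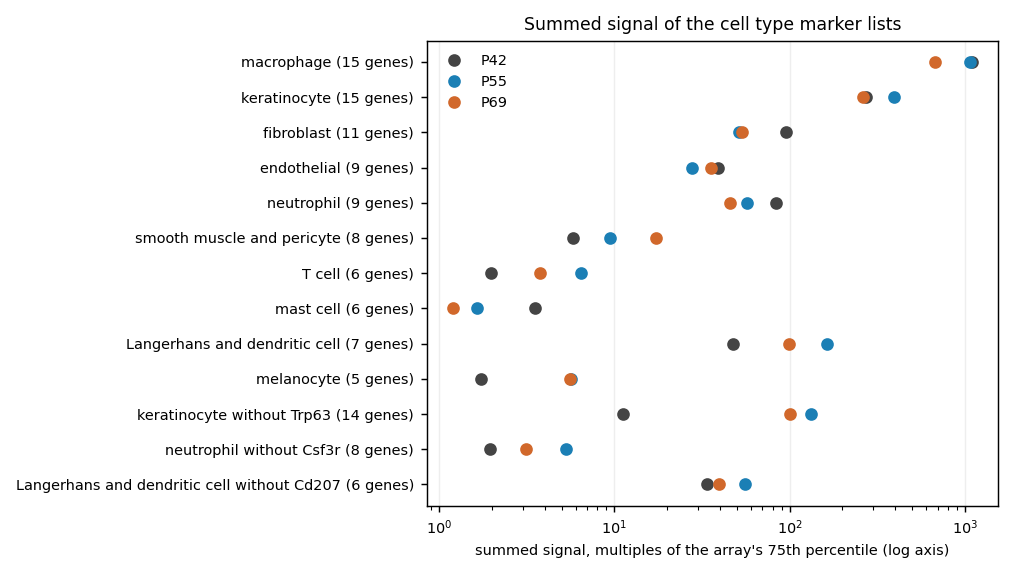
Summed level of each cell type marker list on the P42, P55, and P69 arrays, in multiples of the 75th percentile of the array on a log axis, with 1 point per array. The keratinocyte list without Trp63 lies at 11.2 at P42 and at 132 and 101 at P55 and P69, the neutrophil list without Csf3r at 1.95, 5.33, and 3.14, and the Langerhans and dendritic cell list without Cd207 at 34.0, 55.9, and 39.6. Most of the neutrophil sum without Csf3r comes from Cxcr2.

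Of the 45 genes, 27 were well above background on all arrays and 38 on at least 1. The number was 34 on the P42 array, 27 on the P55 array, and 34 on the P69 array, with the P55 array also the one with the lowest share over all probes. Adamts4, Adamts9, and Mmp13 were well above background at P42 and P69, and not at P55. Adamts3, Adamts7, Mmp1b, and Mmp7 were so at P42 alone, and Adamts6, Adamts15, Adamts16, and Mmp15 at P69 alone, although the other probe of Adamts16 was well above background at P42 and P69. The remaining 7 genes, Adamts18, Adamts19, Adamts20, Mmp10, Mmp16, Mmp20, and Mmp21, did not reach that mark on the 3 arrays, and no change is given for them. Mmp20 encodes enamelysin, an enzyme of developing teeth, and Mmp10 encodes a stromelysin.

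At P55, 34 members had a change from P42. Of these, 5 were at least 2-fold higher (14.7%, against 29.1% of all 15843 genes with a value) and 8 were at least 2-fold lower (23.5%, against 16.9%). At P69, 35 members had a change. Of these, 5 were at least 2-fold higher (14.3%, against 22.2% of all 16164 genes) and 9 were at least 2-fold lower (25.7%, against 20.7%). Lower bounds made up 3 of the 8 decreases at P55, and 4 of the 9 decreases and 1 of the 5 increases at P69. The median log2 change of the members was -0.40 at P55 and -0.27 at P69, and that of all genes was 0.22 and 0.15. A gene that passed background at P42 alone can only lie below its P42 level, and among genes measured on both arrays the medians were -0.21 and -0.20 for the members and 0.38 and 0.20 for all genes. Other scalings moved both medians, and the difference of members minus all genes ranged from -0.72 to -0.59 at P55. At P69 it ranged from -0.42 to 0.00, the latter with quantile normalization, where members and all genes had the same median of 0.30. At the 10-fold threshold that the methods of the study name, Mmp9 was higher and Mmp7 lower at P55, and Mmp7 was lower at P69 (1.44% and 1.13% of all genes passed it in either direction at P55 and P69).

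Both later arrays shared 3 members that were at least 2-fold higher than at P42, Mmp9, Mmp14, and Mmp24, and 3 that were at least 2-fold lower, Mmp7, Adamts8, and Adamts10. Each set makes up 8.82% of the 34 members with a value in both comparisons, against 16.6% of all 15602 genes for higher and 11.3% for lower. Because both comparisons use the P42 array, a deviation of that array enters both. Another 13 members were well above background on all arrays and changed by less than 2-fold in both comparisons.

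**Figure D2:**
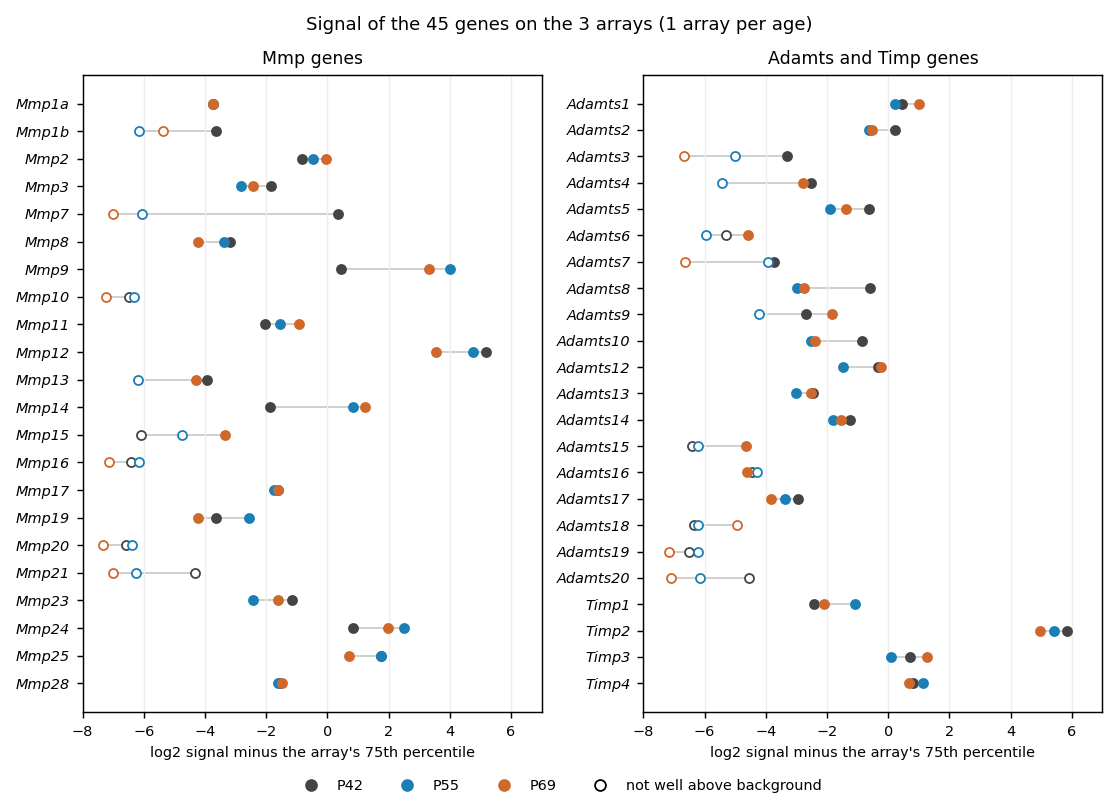
Level of each of the 45 genes on the P42, P55, and P69 arrays, with 1 point per array and open points where the gene was not well above background. Mmp9 and Mmp14 lie higher and Adamts8 and Adamts10 lower on both later arrays than at P42, and Mmp7 is well above background at P42 alone.

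**Figure D3:**
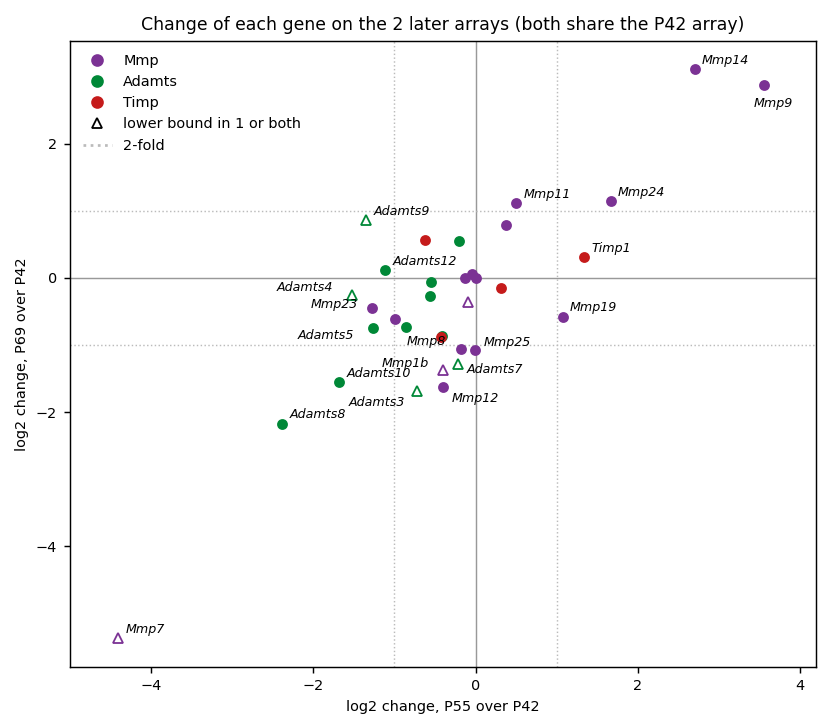
Log2 change from P42 at P55 (horizontal axis) and at P69 (vertical axis) for the 34 members with a value in both, with the 2-fold limits dotted and open triangles where either value is a lower bound. Mmp9, Mmp14, and Mmp24 lie past 2-fold higher in both comparisons, and Mmp7, Adamts8, and Adamts10 past 2-fold lower.

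The gelatinases Mmp2 and Mmp9 cleave denatured collagen and the collagen of basement membranes. The level of Mmp9 was 0.46 at P42, 4.02 at P55, and 3.33 at P69. Mmp9 was thus 11.8-fold higher at P55 (log2 change 3.56) and 7.34-fold higher at P69 (2.88), many times the technical SD, and it is measured by 1 probe. Among genes measured on both arrays, 95 of 13249 had a larger increase at P55 and 155 of 14162 at P69. The level of Mmp2 was -0.84, -0.47, and -0.05, and its log2 change of 0.37 at P55 and 0.79 at P69 stayed under 2-fold. Keratinocyte markers without Trp63 were also higher on both later arrays (11.2, 132, and 101), while Trp63 itself had log2 changes of 0.01 and -0.68. Of the 7 Langerhans and dendritic cell markers, Cd207, Epcam, and Itgax were at least 2-fold higher on both, and 4 of the 7 lay below P42 at P69. Neutrophil markers, which the Gr1- gate selects against, summed to 1.95, 5.33, and 3.14 without Csf3r, while Csf3r itself was lower on both later arrays (log2 changes -0.67 and -0.96). Most of the sum without Csf3r came from Cxcr2 (log2 changes 2.16 and 1.34), and Ltf was lower on both (-2.52 and -2.34). The part of these cells in the change of Mmp9 was not tested.

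Membrane-type metalloproteinases are anchored at the cell surface, by a transmembrane segment in Mmp14, Mmp15, Mmp16, and Mmp24 or by a lipid anchor in Mmp17 and Mmp25. The level of Mmp14, which activates the proenzyme of Mmp2, was -1.87 at P42, 0.83 at P55, and 1.24 at P69. Mmp14 was 6.50-fold higher at P55 (log2 change 2.70) and 8.66-fold higher at P69 (3.11). It is measured by 1 probe, and its increase was exceeded by 321 genes at P55 and by 115 at P69. The sum of keratinocyte markers without Trp63 and the level of Mmp14 were both lowest at P42. With Trp63, which had log2 changes of 0.01 and -0.68, the sum was lowest at P69 (264). The part of these cells was not tested. The level of Mmp24 was 0.83, 2.50, and 1.98, which was 3.17-fold higher at P55 and 2.21-fold higher at P69 (log2 changes 1.67 and 1.14). Its other probe went the other way, with levels of -3.05, -4.31, and -4.44, so that the probes of Mmp24 disagreed past 2-fold at P69. The direction of Mmp24 is therefore not settled by these arrays.

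The 4 other membrane-type genes did not share this pattern. Mmp15 was not well above background at P42 (-6.08) and P55 (-4.74) and had a level of -3.36 at P69, at least 2.12-fold higher than at P42. The level of Mmp25, which is known from leukocytes, was 1.76, 1.75, and 0.69, which was 2.10-fold lower at P69 (log2 change -1.07) and about equal at P55 (-0.01). Mmp17 had levels of -1.61, -1.74, and -1.61, all within the technical error of each other. Mmp16 stayed below detection on the 3 arrays.

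Mmp7 and Mmp12 act on elastin and other matrix proteins. Mmp7, matrilysin, which is best known from glandular epithelium, had a level of 0.36 at P42 and was not well above background at P55 (-6.04) and P69 (-7.01). It was at least 21.1-fold lower at P55 and at least 41.4-fold lower at P69, bounds that no gene measured on both arrays passed in the same direction. Genes whose change is a bound, as for Mmp7, are not in that comparison. Among all genes, 869 bounds at P55 and 1035 at P69 were at least 2-fold lower, so the rank of Mmp7 among them is not given. A single probe measures Mmp7, and its signal at P42 rests on 1 array. Mmp12, the macrophage elastase, had a level of 5.17 at P42, 4.78 at P55, and 3.54 at P69. Its log2 change was -1.63 at P69, past 2-fold, and -0.40 at P55, and its other, dim probe gave -0.90 at P69. The summed macrophage markers were lower at P69 (678) than at P42 (1105) and P55 (1064), with 11 of 15 below P42 at P69. Itgam, the brightest of them, had a log2 change of -1.10 at P69. The 4 above P42 at P69 were Adgre1, Csf1r, Mertk, and Cx3cr1 (0.33, 0.16, 0.50, and 0.99). The part of the macrophage markers in the lower level of Mmp12 was not tested.

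The collagenases cut fibrillar collagen, and all of their levels lay near the limit of detection. Mmp8, the collagenase of neutrophils, had levels of -3.18, -3.36, and -4.24 and was 2.07-fold lower at P69 (log2 change -1.05). Of the 6 neutrophil markers with a value at P69, 2 lay above and 4 below P42. Without Csf3r the summed level of the neutrophil list was lowest at P42, but most of that sum was Cxcr2, which was higher on both later arrays. The part of these cells was not tested. Mmp13 had levels of -3.94 at P42 and -4.30 at P69 and was not well above background at P55 (-6.19). The closely related Mmp1a and Mmp1b differed in detection. Mmp1a had levels of -3.74, -3.74, and -3.75, and Mmp1b was well above background at P42 alone (-3.64), with a decrease of at least 2.60-fold at P69. None of the 4 collagenases was at least 2-fold higher on a later array, where 29.1% of all genes were at P55 and 22.2% at P69. The values of Mmp1b at both later ages and of Mmp13 at P55 are bounds whose direction was fixed by the filter.

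The stromelysins act on proteoglycans, laminin, and fibronectin, and Mmp11 is an atypical member of the group that is known from stromal cells. The level of Mmp3 was -1.82 at P42, -2.82 at P55, and -2.44 at P69, and its log2 change was -0.99 at P55, just inside 2-fold, and -0.62 at P69. Mmp11 had levels of -2.04, -1.54, and -0.93 and was 2.16-fold higher at P69 (log2 change 1.11). Its other probe gave a similar value of 1.24. Mmp10 stayed below detection on the 3 arrays.

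Of the remaining metalloproteinases, Mmp19 and Mmp23 differed at P55 alone. Mmp19 had levels of -3.65, -2.58, and -4.23 and was 2.11-fold higher at P55 (log2 change 1.08). Mmp23 had levels of -1.15, -2.42, and -1.60 and was 2.42-fold lower at P55 (-1.28). Mmp28, epilysin, which is known from keratinocytes, had levels of -1.55, -1.60, and -1.49, with no change from P42 above the technical SD. The other probe of Mmp28 was well above background at P69 alone, with no fold given because the bound was under 1. Keratinocyte markers without Trp63 differed strongly between the same arrays (11.2, 132, and 101), while with Trp63 they summed to 273, 395, and 264. The part of these cells in the Mmp28 values was not tested.

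Among the Adamts genes, 13 had a value in each comparison. None of them was at least 2-fold higher, against 29.1% of all genes at P55 and 22.2% at P69. At least 2-fold lower were 6 at P55 (16.9% of all genes) and 4 at P69 (20.7%). Among those measured on both arrays, 4 of 9 were at least 2-fold lower at P55 and 2 of 11 at P69. Of the 9 measured on both arrays at P55, all were below their P42 level, where 38.3% of all genes so measured were, with a median log2 change of -0.86. At P69, 8 of 11 were below P42, where 43.4% of all genes were, with a median of -0.27. The other values are bounds that passed background at P42 and not on the later array, Adamts3, Adamts4, Adamts7, and Adamts9 at P55 and Adamts3 and Adamts7 at P69, so that their direction was fixed by the filter. With bounds included, the median of the family at P55 stayed below 0 under each scaling, from -1.23 to -0.43. At P69 it was -0.73 and turned to 0.26 with the array median, where the median of all genes was 0.65, and to 0.07 with quantile normalization. The summed fibroblast markers were lower on both later arrays as well (95.4, 51.7, and 53.4), and endothelial markers were lowest at P55 (27.8). Of the fibroblast markers, 3 of 10 with a value were at least 2-fold lower and 2 at least 2-fold higher at P55, and 3 and 2 of 11 at P69, where the median was 0.13. The part of these cells in the Adamts values was not tested.

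The aggrecanases and their relatives cut the large proteoglycans of the matrix. Adamts8 had a level of -0.58 at P42, -2.96 at P55, and -2.76 at P69, which was 5.21-fold and 4.51-fold lower (log2 changes -2.38 and -2.17). Its other probe, dimmer on every array, showed a log2 change of only -0.15 at P69. Adamts5, the main aggrecanase of mouse cartilage, had levels of -0.63, -1.89, and -1.38 and was 2.40-fold lower at P55 (-1.26) and not past 2-fold at P69 (-0.75), where its other probe gave a bound of 0.39. Adamts1 had levels of 0.45, 0.24, and 1.00, with log2 changes of -0.21 at P55 and 0.55 at P69. Adamts4 had levels of -2.53 at P42 and -2.77 at P69, and was at least 2.86-fold lower at P55. Adamts9 had levels of -2.70 and -1.84 at these ages and was at least 2.54-fold lower at P55. Adamts15 was above background at P69 alone, with no fold given because the bound was under 1, and Adamts20 on no array.

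The procollagen N-proteinases Adamts2, Adamts3, and Adamts14 remove a propeptide so that collagen can form fibrils. Adamts2 had levels of 0.22, -0.64, and -0.52, with log2 changes of -0.86 at P55 and -0.73 at P69, and its other probe gave -0.42 and 1.17. Adamts14 had levels of -1.25, -1.82, and -1.53, with log2 changes of -0.56 and -0.27. Adamts3 was well above background at P42 alone (-3.32) and was at least 3.23-fold lower at P69. The probes of Adamts2 and Adamts14 disagreed in direction at P69, so only the lower level at P55 was common to their probes.

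Adamts7 and Adamts12 cut the cartilage oligomeric matrix protein (COMP). Adamts12 had levels of -0.35, -1.46, and -0.23 and was 2.16-fold lower at P55 alone (log2 change -1.11). Adamts7 was well above background at P42 alone (-3.72), and was at least 2.45-fold lower at P69. Adamts13, which cuts von Willebrand factor, had levels between -3.00 and -2.45, and its log2 change was -0.55 at P55 and -0.06 at P69. Its other probe gave -0.54 at P55 and -1.85 at P69, so the probes differed at P69.

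Of the remaining Adamts genes, Adamts10 and Adamts17 were well above background on all arrays. Adamts10, whose product binds fibrillin microfibrils, had levels of -0.84, -2.52, and -2.39, which was 3.21-fold lower at P55 and 2.93-fold lower at P69 (log2 changes -1.68 and -1.55). It is measured by 1 probe. Adamts17 had levels of -2.96, -3.38, and -3.83, with log2 changes of -0.42 and -0.87, and its other probe gave -0.49 and -1.14. The other 4 genes of this group had no value by their brightest probe, and the other probe of Adamts16 gave a log2 change of -0.32 at P69.

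All 4 inhibitors were well above background on every array. Timp1, which many cells make in response to inflammation, had a level of -2.41 at P42, -1.07 at P55, and -2.11 at P69. It was 2.53-fold higher at P55 (log2 change 1.34) and lay within 2-fold at P69 (0.31). Timp2, which also helps Mmp14 to activate Mmp2, had levels of 5.83, 5.40, and 4.96, with log2 changes of -0.43 at P55 and -0.88 at P69. Its other probe gave -0.83 and -0.57, so both probes were lower on both later arrays and neither passed 2-fold. Timp3, the inhibitor that binds the extracellular matrix, had levels of 0.72, 0.10, and 1.28, with log2 changes of -0.62 and 0.56. Timp4 had levels of 0.82, 1.13, and 0.68, with log2 changes of 0.31 and -0.15. Thus no inhibitor was past 2-fold at P69, and Timp1 alone was so at P55. Of all genes with a value, 29.1% were higher and 16.9% lower by this limit at P55, and 22.2% and 20.7% at P69.

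Between the later arrays, 4 members were at least 2-fold higher at P69 than at P55 (7.85% of all 14846 genes passed) and 4 were at least 2-fold lower (11.3% passed), out of 30 with a value. Higher were Adamts12 (log2 change 1.23), Timp3 (1.18), and, as lower bounds, Adamts9 (2.20) and Adamts4 (1.27). Lower were Mmp19 (-1.65), Mmp12 (-1.23), Mmp25 (-1.06), and Timp1 (-1.03). Of the 9 Adamts genes measured on both arrays, 8 were above their P55 level at P69, with a median of 0.29, where the median of all genes so measured was -0.19. Endothelial markers (27.8 and 35.8) and smooth muscle markers (9.49 and 17.3) were also higher at P69 than at P55, and their part was not tested. The sign of each of these changes turns if the arrays are assigned as in the table of processed values.

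In the RefSeq gene order, 10 Mmp genes lie in 1 stretch of chromosome 9 with a few noncoding genes and a pseudogene between them, in the order Mmp13, Mmp12, Mmp1b, Mmp3, Mmp1a, Mmp10, Mmp8, Mmp27, Mmp20, and Mmp7. At P69, 4 of the 7 with a value were at least 2-fold lower (Mmp1b, Mmp7, Mmp8, and Mmp12), where 20.7% of all genes were. None was at least 2-fold higher, where 22.2% of all genes were. The direction of Mmp1b and Mmp7 was fixed, since they passed background at P42 alone. The 5 genes measured on both arrays lay below P42 at P69, 2 of them past 2-fold and Mmp1a by a log2 change of only -0.01, with a median log2 change of -0.62. At P55, 3 of the 4 measured on both arrays lay below P42, none past 2-fold, with a median of -0.29, and the other, Mmp1a, had a change of 0.00. Of all genes measured on both arrays, 43.4% lay below P42 at P69 and 38.3% at P55. Of the Mmp genes elsewhere in the genome, 7 of 10 measured on both arrays lay above P42 at P69 and 6 of 10 at P55, with medians of 0.42 and 0.44. Among the 7, Mmp17 and Mmp28 changed by less than the technical SD, and the probes of Mmp24 disagreed. With the median over the probes of a gene and bounds included, the median of this group at P69 was 0.06. With the array median as scaling and bounds included, 5 of 7 cluster genes were below P42 at P69 and 2 of 5 at P55, against 2 of 11 and 1 of 10 of the others. No test of this difference was possible with 1 array per age, and the value is a bound in 1 or both comparisons for Mmp1b, Mmp7, and Mmp13.

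The proximal promoters of the cluster are shown because AP-1, a factor downstream of growth factor and inflammatory signals, is known to act on metalloproteinase promoters through the site TGANTCA, which reads the same on both strands. In windows from 250 bases before to 50 bases after the start of a transcript (RefSeq, GRCm38.p6), this motif was present in 8 of the 10 cluster genes and in 0 of the 22 other members with a window. Over all 27025 genes with a window it was present in 8.97%. Mmp9 has no window in this table and is named only. A match is a description of the sequence, and its absence says only that these letters are not in the window. The 100 bases before the start are printed 5' to 3' for the cluster genes that hold the motif and have a measured or bounded change, with the motif in capitals, followed by Mmp14, which was higher on both later arrays and holds no match.
Mmp13, chr9:7272414-7272513, plus strand: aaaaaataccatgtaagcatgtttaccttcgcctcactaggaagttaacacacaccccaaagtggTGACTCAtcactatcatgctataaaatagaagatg
Mmp12, chr9:7347274-7347373, plus strand: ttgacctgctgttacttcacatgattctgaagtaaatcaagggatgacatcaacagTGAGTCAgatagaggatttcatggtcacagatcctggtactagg
Mmp1b, chr9:7388027-7388126, minus strand: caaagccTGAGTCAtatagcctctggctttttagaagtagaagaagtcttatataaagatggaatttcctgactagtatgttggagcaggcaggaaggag
Mmp3, chr9:7445722-7445821, plus strand: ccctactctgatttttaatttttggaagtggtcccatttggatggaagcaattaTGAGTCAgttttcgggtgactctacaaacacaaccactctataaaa
Mmp1a, chr9:7464041-7464140, plus strand: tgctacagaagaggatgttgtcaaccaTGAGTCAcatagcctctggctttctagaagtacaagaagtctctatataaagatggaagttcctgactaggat
Mmp7, chr9:7691990-7692089, plus strand: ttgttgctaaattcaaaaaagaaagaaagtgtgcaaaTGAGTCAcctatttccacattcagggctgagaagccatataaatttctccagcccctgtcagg
Mmp14, chr14:54431498-54431597, plus strand: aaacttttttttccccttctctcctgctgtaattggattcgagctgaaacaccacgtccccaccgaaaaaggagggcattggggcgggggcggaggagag

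Mmp13 is the 1 gene of these 6 with the letters TGACTCA, which is TGAGTCA read on the other strand, and the others carry TGAGTCA. The motif starts 35 bases before the start of the transcript in Mmp13, 44 in Mmp12, 46 in Mmp3, 63 in Mmp7, 73 in Mmp1a, and 93 in Mmp1b. For Mmp12 and Mmp7 the table holds another start whose window has no match, and the window shown is the one with the motif. The sequences of Mmp1a and Mmp1b resemble each other around the motif. The 100 bases before the start had a median GC content of 41% (38% to 51%) in the 10 cluster genes, 69% (49% to 92%) in the 22 other members, and 55% over all windows. Cluster genes with the motif included Mmp7, at least 41.4-fold lower at P69, and Mmp1a, whose levels differed by less than the technical SD, so genes with the motif did not share 1 pattern.

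**Figure D4:**
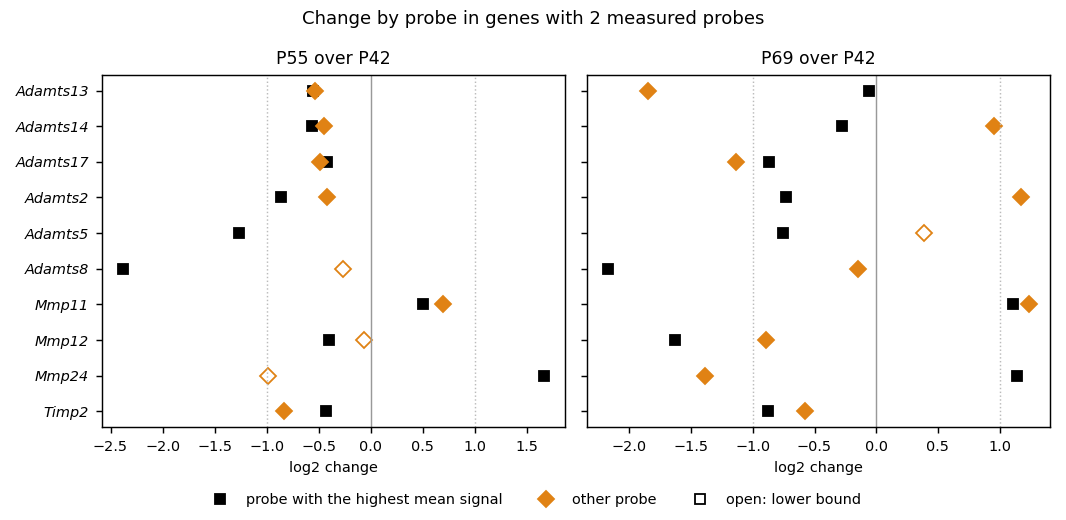
Log2 change from P42 by probe for the 10 genes with more than 1 measured probe at P69, with the reported probe as a black square, the other as an orange diamond, and open symbols for lower bounds. The probes of Mmp11, Adamts17, and Timp2 lie on the same side in both panels, and those of Mmp24 lie on opposite sides.

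Genes that act with these enzymes were read from lists of regulators, ADAM proteinases, the plasminogen activator system, and substrates. Among 10 inhibitors and modulators with a probe, 1 was at least 2-fold higher and 4 were lower at P55, and 0 and 3 at P69. Of all genes with a value, 29.1% were higher and 16.9% lower by this limit at P55, and 22.2% and 20.7% at P69. The endocytic receptor Lrp1, which clears proteinases and their inhibitors, had levels of 4.29, 3.26, and 3.26 (log2 change -1.03 on both). The broad proteinase inhibitor A2m had a bound of -1.32 at P55 and a log2 change of -1.71 at P69. Adamtsl2, an ADAMTS-like protein without proteinase activity, had log2 changes of -1.73 and -2.36.

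Of the 8 ADAM proteinases with a value, 2 were at least 2-fold higher and 2 lower on each later array. The shares of all genes were 29.1% higher and 16.9% lower at P55, and 22.2% and 20.7% at P69. Adam10, a sheddase of membrane proteins, had levels of 0.65, 1.85, and 2.34 (log2 changes 1.20 and 1.69). Adam33 had log2 changes of -1.73 and -1.18, and Adam12 had a bound of -2.15 and a change of -1.61. Plasmin can activate several Mmp proenzymes, and it is released from plasminogen by the activators Plau and Plat. The activators went in opposite directions, with log2 changes of -1.74 and -1.15 for Plau and 1.21 and 1.61 for Plat. Plg, plasminogen itself, was well above background at P42 alone, with bounds of -1.04 and -2.01.

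Of the 11 substrates with a value, 2 were at least 2-fold higher on each later array (29.1% of all genes at P55 and 22.2% at P69). At least 2-fold lower were 3 at P55 and 2 at P69 (16.9% and 20.7% of all genes). Comp, the substrate of Adamts7 and Adamts12, had levels of -1.66, 3.41, and 2.31 (log2 changes 5.07 and 3.97), while neither of these proteinases was higher past 2-fold. Fn1, fibronectin, had log2 changes of 1.94 and 2.16. Col3a1, a fibrillar collagen, had log2 changes of -1.15 and -1.05, and it is also on the list of fibroblast markers.

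Which of these changes depend on how the arrays were treated is shown by their range over 10 alternatives. The changes of Mmp9, Mmp14, Adamts8, and Adamts10 stayed past 2-fold in the same direction under all 10 alternatives in both comparisons, and those of Mmp7 under the 9 that give it a value. Some alternatives could not move these values. Mmp9, Mmp14, Adamts8, and Adamts10 were well above background on all arrays, so filters on dim probes left them unchanged. Mmp9, Mmp14, and Adamts10 have 1 probe each, so the median over probes changed nothing. The other assignment of the later arrays only exchanges the values of P55 and P69. Mmp9 ranged from 2.88 to 4.12 at P55 and from 2.67 to 3.56 at P69, and Mmp14 from 2.33 to 3.26 and from 2.70 to 3.64. Adamts10 ranged from -2.05 to -1.04 at P55 and from -1.76 to -1.03 at P69, close to the limit at its weakest, and Adamts8 from -2.75 to -1.33 and from -2.38 to -1.16. The other probe of Adamts8, taken alone, is not among the alternatives. It gave a bound of -0.27 at P55 and a log2 change of -0.15 at P69, so the probes of Adamts8 differed. Each of the other changes past 2-fold fell below the limit under at least 1 alternative. The changes at a single later array move to the other age under the assignment of the table of processed values, as for Mmp19 and Timp1 among the increases at P55 and Mmp8, Mmp12, and Mmp25 among the decreases at P69.

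**Figure D5:**
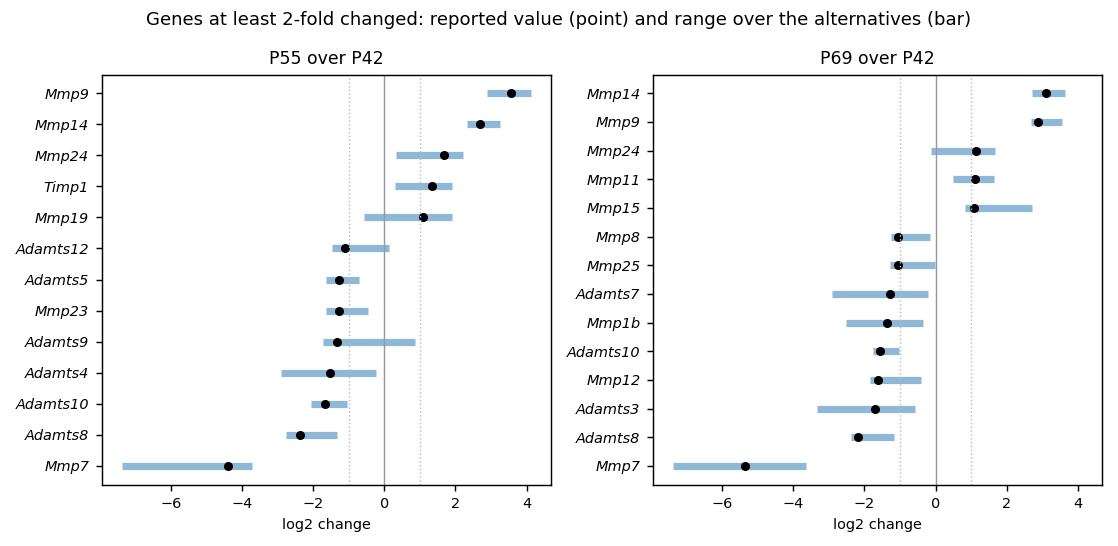
Log2 change of each member at least 2-fold changed at P55 (left) or P69 (right), with the reported value as a point, the range over up to 10 alternatives as a bar, and the 2-fold limits dotted. The bars of Mmp9, Mmp14, Mmp7, Adamts8, and Adamts10 stay outside the limits in both panels.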

How the data were processed

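Gene expression was measured on Agilent mouse arrays, 1 per age, hybridized with Cy3-labeled cDNA from pooled macrophage RNA that was amplified as a whole transcriptome. The authors quantified the images with Feature Extraction (10.7.3.1 per the file headers, array design on mm9), and the deposited intensity of each spot is on a linear scale, corrected for background and not normalized between arrays. The authors also deposited a log2 table of processed values, centered on the median of each probe, whose scaling between arrays is not given in the sources used here.

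Here, control spots and spots marked as outliers (162, 274, and 281 at P42, P55, and P69) were left out, spots of a probe were averaged, and the 75th percentile of an array was subtracted from its log2 intensities. Detection of a probe needed a share of 0.5 of its spots to pass the software's mark for well above background, and a fold was given as a bound with detection on 1 array and not at all where the bound was under 1. Current symbols came from RefSeq (GRCm38.p6), which named 26056 of 55681 probes. The members and all gene lists were chosen with earlier results of these data known. A gene of the lists is not reported here. Values given in full are those of the inhibitors, of members detected on all arrays, and of members past 2-fold on both later arrays, and the others were described after their values were seen. Alternatives covered scaling, background correction with normexp (limma 3.58.1 in R 4.3.3, offset 50), the deposited log2 table, filters on dim probes, outlier spots, the probes of a gene, and the assignment of the later arrays. Other steps used Python 3.11.15, numpy 2.4.6, and pandas 2.3.3, and were tested on simulated data. Arrays lay on 1 slide, and their number limits the precision.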

Additional observations from a re-analysis of the deposited data

How the results depend on the processing

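Of the 45 members, 38 were detected on at least 1 array, and 41 had a positive and significant signal. With the 75th percentile taken from probes that every array detected, the median log2 change of the members was -0.78 at P55 and -0.48 at P69, with 3 and 2 members at least 2-fold higher and 1 past 10-fold at P55. With the array median, the medians were 0.14 and 0.29, with 3 and 5 members lower, 9 higher at P69, and 3 past 10-fold at P69. The split of higher to lower members at P69, 5 to 9 as reported, became 2 to 11 and 9 to 5 under these scalings, and at P55, 5 to 8 as reported, 3 to 11 and 6 to 3. Quantile normalization gave a median of 0.30 at P69, 4 and 5 members lower, and 1 and 2 past 10-fold (split 5 to 4 and 6 to 5). Normexp gave a median of 0.092 at P69, 3 and 5 lower, and 1 past 10-fold at P55 (split 4 to 3 and 4 to 5). The deposited log2 table gave a median of -0.61 and 2 past 10-fold at P69. With detection required on both arrays, the median at P55 was -0.21, 5 members were lower at either age, and 1 and 0 were past 10-fold. Without the filter, 13 were lower at P55 and 2 past 10-fold at P69. With the arrays assigned as in the table, 1 and 2 were past 10-fold.

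Among changes reported past 2-fold, Adamts12, Mmp19, and Adamts9 turned direction at P55 with the deposited table and with its assignment. The values were 0.12 in both for Adamts12, -0.57 and -0.58 for Mmp19, and 0.86 in both for Adamts9. Mmp24 turned at P69 with the median over its probes (-0.12). The deposited table holds the later arrays the other way round, and its P55 values for Adamts12 and Mmp19 are close to those reported for P69 (0.12 and -0.58). Turns with that table, with its assignment, or through the disagreement of probes are thus given by construction. The cause of other turns was not tested. Single-gene values under alternatives were tallied for 28 members, which do not include Adamts9. Among these 534 values, 256 moved by less than the technical SD, and 60, of 18 genes, had the opposite sign to the reported value. Of these 60, 55 belong to changes reported under 2-fold, such as Timp3 with the deposited table (0.56 at P55 and -0.61 at P69) and Adamts2 at P69 with the median over its probes (0.22). No paired analysis was possible because each age has 1 array. The planned search for protein motifs was not run.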
